A study of Homo sapiens with 24 samples.

Results

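The 10 genes described here encode parts of the contractile apparatus of smooth muscle: CNN1, ACTA2, TAGLN, MYL9, TPM1, TPM2, CALD1, ACTG2, MYH11 and LMOD1. They were chosen with measured values of these arrays in view, above all their levels in cells given control siRNA or FZ8CRD beside cells given neither, so those differences are given as a description with no test. Members were found by the RefSeq transcript that each probe is named for, and all 10 had a probe on the array. Of the 24648 genes that passed a filter on dim signal and were tested, 7 were members.

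RNA came from HepaRG, an established human hepatic progenitor line that can take on hepatocyte-like and biliary-like forms, and was measured on 24 one-colour Agilent arrays, 3 for each of 8 conditions. Untransfected cells were left untreated, or were given mouse Wnt3a at 200 ng/ml, the mouse protein FZD8_CRD at 300 ng/ml (FZ8CRD, a soluble Wnt-binding domain of a frizzled receptor), or both, for 72 h in serum-free medium. Other cells were detached and electroporated with 80 pmol of control siRNA or of siRNA against CTNNB1, the gene for β-catenin, and were then kept with or without Wnt3a. Each condition was a set of independent cultures of 1 line. The control siRNA cells thus differed from the untreated cells by electroporation and an siRNA together, which cannot be told apart. They may also have differed by detachment, a step that the study's culture methods describe for untransfected HepaRG cells as well. Values are log2 of the background-subtracted signal after division by the 75th percentile of the non-control spots on the same array, so 0 is the level of that percentile. The 75th percentile lay between 642.7 and 933.8 intensity units, and between 58.3% and 66.5% of spots were well above background on each array. With 3 arrays a condition, their number limits the precision.

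As background, smooth muscle shortens when myosin filaments pull on actin filaments, after a kinase phosphorylates the myosin regulatory light chain. Calponin, caldesmon and tropomyosin lie along the actin filament and tune that pull. Many of these genes carry binding sites for serum response factor, SRF, which works with the coactivators myocardin and the MRTF proteins. In liver, smooth muscle α-actin is the usual marker of myofibroblasts derived from stellate cells, and several members are also part of the stress fibres of spread cultured cells.

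Some arrays stood apart from others of their condition. FZ8CRD replicate 3 differed from the mean of the other FZ8CRD arrays by a median of 0.25 in log2 units over all genes, with 1236 genes past a 2-fold difference. Its median distance to the mean of the FZ8CRD + Wnt3a arrays was 0.133, against 0.237 and 0.246 for FZ8CRD replicates 1 and 2. The Wnt3a arrays were uneven as well, with a median distance of 0.161 for replicate 1, 0.238 for replicate 2 and 0.243 for replicate 3. The label of FZ8CRD replicate 3 as a culture without Wnt3a could not be verified here, and the array was kept as labelled. The main results that depended on FZ8CRD replicate 3 or on Wnt3a replicate 2 are given with and without that array. Same-numbered arrays of all conditions shared a slide, on which untransfected, control siRNA, CTNNB1 siRNA and FZ8CRD samples each had a fixed column and samples with and without Wnt3a a fixed row. Position on the slide and treatment therefore cannot be told apart.

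The knockdown was visible on every array. CTNNB1 read 3.35, 3.37 and 3.51 with control siRNA and 0.26, 0.35 and 0.52 with CTNNB1 siRNA, in the order of replicates 1 to 3. With Wnt3a it read 3.39, 3.62 and 3.67 with control siRNA and 0.33, 0.52 and 0.77 with CTNNB1 siRNA. It stayed between 3.22 and 4.11 on all untransfected arrays. The groups did not overlap, and CTNNB1 was 8.19-fold lower without Wnt3a (log2 −3.03, standard error 0.17, limma adjusted p = 1.17e-09, lower in 3 of 3 slides) and 8.10-fold lower with it (log2 −3.02, adjusted p = 7.76e-10, lower in 3 of 3 slides).

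Most tested markers of hepatocytes and of biliary or progenitor cells were well above background on all arrays. Signals of different probes do not compare the levels of genes, so each sum is read only between conditions. Of 11 hepatocyte markers, 10 were well above background on all 24 arrays, with the highest signal for albumin (ALB). Their summed level was 1127 times the 75th percentile in untreated cells, 389 with control siRNA, 566 with CTNNB1 siRNA and 326 with FZ8CRD. With Wnt3a the sums were 738 in untransfected cells, 240 with control siRNA, 390 with CTNNB1 siRNA and 389 with FZ8CRD. Biliary or progenitor markers (8 listed, 6 tested, 5 well above background on all arrays, KRT19 with the highest signal) summed to 336 in untreated cells, 347 with control siRNA, 348 with CTNNB1 siRNA and 385 with FZ8CRD, and to 356, 354, 327 and 444 in the same order with Wnt3a. Endothelial markers (5 tested of 5, 4 well above background on all arrays, KDR with the highest signal) summed to 3.72, 3.15, 3.59 and 1.503 without Wnt3a and 2.84, 2.26, 3.34 and 0.853 with it, in that order of conditions. Blood cell markers (3 tested of 5, all 3 well above background on all arrays, CD68 with the highest signal) summed to 5.50 in untreated cells, 4.86 with control siRNA, 2.97 with CTNNB1 siRNA and 3.50 with FZ8CRD, and to 5.55, 5.04, 3.15 and 3.93 with Wnt3a. Of 13 fibroblast or stellate markers, 12 were tested and 7 were well above background on all arrays. Their sum was 57.4 in untreated cells, 42.0 with control siRNA, 24.7 with CTNNB1 siRNA and 38.7 with FZ8CRD, and 101, 69.4, 50.3 and 76.6 in the same order with Wnt3a, with the highest signal for decorin (DCN). MYOCD, which encodes the smooth muscle coactivator myocardin, was well above background on 0 of 24 arrays, and so was the fibroblast marker THY1. In bulk RNA, fewer cells of a type and less RNA per cell cannot be told apart, and the part of these shifts in the values of the contractile genes was not tested.

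**Figure D1:**
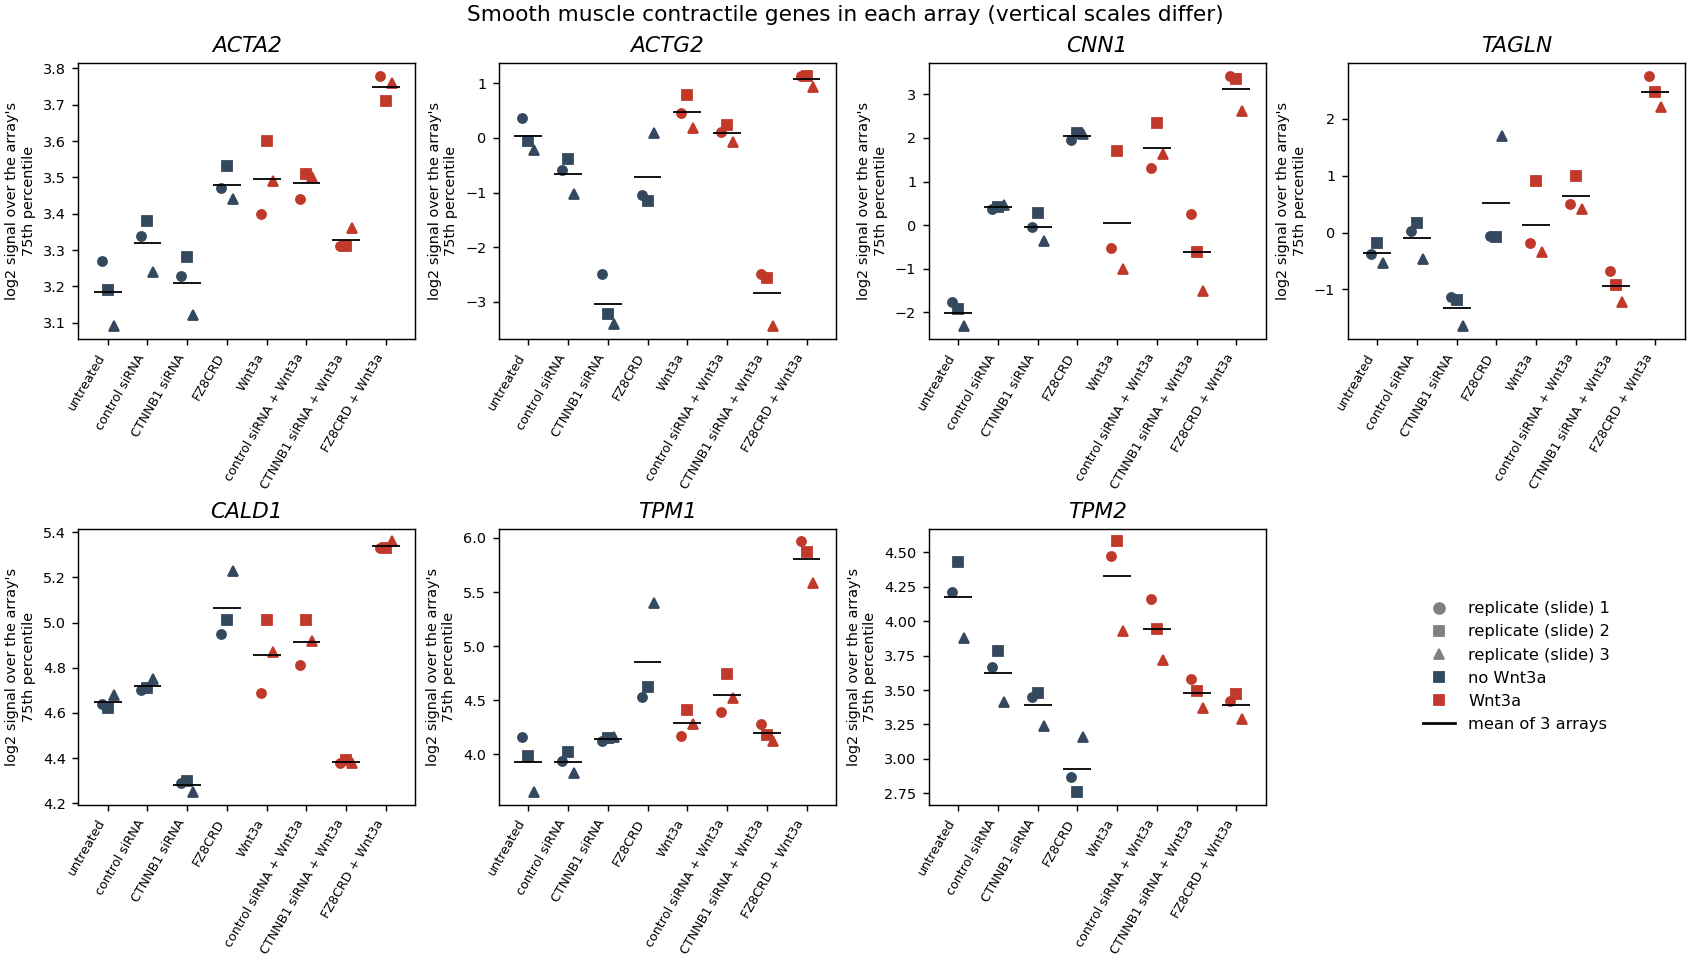
Log2 signal over the array's 75th percentile for the 7 members that passed the filter, 1 symbol per array, with the 8 conditions along the horizontal axis and a line at the mean of 3 arrays. FZ8CRD + Wnt3a has the highest mean for 6 of the 7, and TPM2 has its lowest mean with FZ8CRD, at 2.93.

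The first of the actins of the thin filament is ACTA2, smooth muscle α-actin. It read 3.27, 3.19 and 3.09 in untreated cells, 3.34, 3.38 and 3.24 with control siRNA, 3.23, 3.28 and 3.12 with CTNNB1 siRNA, and 3.47, 3.53 and 3.44 with FZ8CRD. Wnt3a cultures gave 3.40, 3.60 and 3.49 in untransfected cells, 3.44, 3.51 and 3.50 with control siRNA, 3.31, 3.31 and 3.36 with CTNNB1 siRNA, and 3.78, 3.71 and 3.76 with FZ8CRD. All 24 values lay within 1 log2 unit of each other, the FZ8CRD + Wnt3a arrays were above all others, and the untreated arrays overlapped those with either siRNA. In order of the mean, FZ8CRD + Wnt3a (3.75) was followed by Wnt3a (3.49), FZ8CRD (3.48) and control siRNA + Wnt3a (3.48), which overlapped each other. CTNNB1 siRNA + Wnt3a (3.32), control siRNA (3.32), CTNNB1 siRNA (3.21) and untreated (3.18) came after them, and each of these overlapped the next.

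ACTG2, the smooth muscle γ-actin of gut and bladder, had a much wider range. It read 0.37, −0.05 and −0.23 in untreated cells, −0.58, −0.39 and −1.03 with control siRNA, −2.50, −3.23 and −3.41 with CTNNB1 siRNA, and −1.05, −1.16 and 0.09 with FZ8CRD. With Wnt3a it read 0.46, 0.79 and 0.19 in untransfected cells, 0.11, 0.24 and −0.07 with control siRNA, −2.50, −2.57 and −3.45 with CTNNB1 siRNA, and 1.14, 1.14 and 0.93 with FZ8CRD. All 6 CTNNB1 siRNA arrays were below all others, the FZ8CRD + Wnt3a arrays were above all others, and FZ8CRD replicate 3 lay more than 1 log2 unit above the other FZ8CRD arrays. The means ran from 1.07 with FZ8CRD + Wnt3a through 0.48 with Wnt3a, 0.09 with control siRNA + Wnt3a and 0.03 in untreated cells to −0.67 with control siRNA and −0.71 with FZ8CRD. The lowest were −2.84 with CTNNB1 siRNA + Wnt3a and −3.05 with CTNNB1 siRNA, which overlapped each other. Neighbours also overlapped between Wnt3a and control siRNA + Wnt3a, between that condition and untreated, and between control siRNA and FZ8CRD.

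The start region of ACTG2 is shown because it alone among the members' listed promoters held a strict CArG box, the SRF site known by that name. The strict form has 6 A or T bases between CC and GG, and looser forms were not searched. ACTG2 also gave the lowest adjusted p among the members, for CTNNB1 siRNA against control siRNA with Wnt3a. That comparison uses control siRNA arrays behind the choice, so its p is no independent ground for showing the gene. The region is the RefSeq promoter on GRCh38.p14, chr2:73892758-73893057, plus strand, 5′ to 3′, with its CArG boxes in capitals.

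ACTG2: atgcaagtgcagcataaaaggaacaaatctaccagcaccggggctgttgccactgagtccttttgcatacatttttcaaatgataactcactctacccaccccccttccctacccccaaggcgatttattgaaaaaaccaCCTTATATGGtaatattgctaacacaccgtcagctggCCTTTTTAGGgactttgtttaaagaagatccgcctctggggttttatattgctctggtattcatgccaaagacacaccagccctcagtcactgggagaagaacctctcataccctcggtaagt

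Its 2 boxes lay from base −110 to −101 and from −73 to −64 relative to the start site. Entries existed for 7 of the 10 members, 12 in all, and both strands of 300 bases were searched. A CArG box was found in 1.29% of 35116 promoters (454), and the β-catenin partner motifs CTTTGAA in 4.43% (1555) and CTTTGAT in 2.62% (919), neither of which was found in any entry of a member. CATTCC, the letters of a TEAD site, was found in 14% (4928), among them 1 entry of ACTA2, 2 of CALD1 and the entry of LMOD1. TAGLN, MYL9 and MYH11 had no entry. The matches are a description of letters and were not tested against expression.

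Calponin 1 (CNN1), which binds actin and slows the myosin motor, had the widest range over the conditions. It read −1.77, −1.92 and −2.32 in untreated cells, 0.38, 0.42 and 0.47 with control siRNA, −0.03, 0.29 and −0.37 with CTNNB1 siRNA, and 1.96, 2.11 and 2.10 with FZ8CRD. In the presence of Wnt3a it read −0.53, 1.71 and −1 in untransfected cells, 1.32, 2.34 and 1.64 with control siRNA, 0.25, −0.61 and −1.51 with CTNNB1 siRNA, and 3.43, 3.35 and 2.62 with FZ8CRD. The untreated arrays were below all others, both FZ8CRD conditions and control siRNA + Wnt3a held the high values, and Wnt3a replicate 2 stood more than 2 log2 units above the other Wnt3a arrays. In order of the mean, FZ8CRD + Wnt3a (3.13) was above FZ8CRD (2.05) without overlap, and FZ8CRD overlapped control siRNA + Wnt3a (1.76). Control siRNA (0.42), Wnt3a (0.06), CTNNB1 siRNA (−0.04) and CTNNB1 siRNA + Wnt3a (−0.63) each overlapped the next, and untreated (−2) was lowest.

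The start region of CNN1 is shown beside that of ACTG2, since CNN1 had the largest differences from untreated cells and its entry held none of the 4 motifs. Those differences were behind the choice of members, and the entries of TPM1 and TPM2 held none of the 4 motifs either. The CNN1 region is chr19:11538601-11538900 on GRCh38.p14 in RefSeq, plus strand, 5′ to 3′.

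CNN1: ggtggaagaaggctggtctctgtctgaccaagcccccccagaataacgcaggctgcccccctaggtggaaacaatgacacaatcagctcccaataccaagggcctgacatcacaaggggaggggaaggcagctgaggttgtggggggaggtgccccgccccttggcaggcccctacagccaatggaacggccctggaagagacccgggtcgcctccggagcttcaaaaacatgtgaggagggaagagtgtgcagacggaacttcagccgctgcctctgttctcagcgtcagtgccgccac

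Transgelin (TAGLN, also called SM22α), a small actin-bundling relative of calponin, read −0.38, −0.18 and −0.53 in untreated cells, 0.02, 0.16 and −0.47 with control siRNA, −1.13, −1.18 and −1.65 with CTNNB1 siRNA, and −0.06, −0.08 and 1.69 with FZ8CRD. With Wnt3a it read −0.18, 0.91 and −0.35 in untransfected cells, 0.50, 0.99 and 0.42 with control siRNA, −0.67, −0.92 and −1.22 with CTNNB1 siRNA, and 2.76, 2.48 and 2.20 with FZ8CRD. The CTNNB1 siRNA arrays were lowest, the FZ8CRD + Wnt3a arrays highest, and FZ8CRD replicate 3 lay far above the other FZ8CRD arrays. Mean levels were 2.48 with FZ8CRD + Wnt3a, then 0.64 with control siRNA + Wnt3a, 0.52 with FZ8CRD, 0.12 with Wnt3a, −0.10 with control siRNA and −0.36 in untreated cells, where each of the last 5 overlapped its neighbours among them. CTNNB1 siRNA + Wnt3a (−0.94) and CTNNB1 siRNA (−1.32) overlapped each other and lay below the rest.

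Caldesmon (CALD1), which ties actin to myosin and holds back the motor, read 4.64, 4.62 and 4.68 in untreated cells, 4.70, 4.71 and 4.75 with control siRNA, 4.29, 4.30 and 4.25 with CTNNB1 siRNA, and 4.95, 5.01 and 5.23 with FZ8CRD. The arrays with Wnt3a read 4.69, 5.01 and 4.87 in untransfected cells, 4.81, 5.01 and 4.92 with control siRNA, 4.38, 4.39 and 4.38 with CTNNB1 siRNA, and 5.33, 5.33 and 5.36 with FZ8CRD. Replicates lay close together, and the 6 CTNNB1 siRNA arrays were below all others. FZ8CRD + Wnt3a (mean 5.34) was above FZ8CRD (5.06) without overlap. FZ8CRD, control siRNA + Wnt3a (4.91), Wnt3a (4.86) and control siRNA (4.72) each overlapped the next, and untreated (4.65), CTNNB1 siRNA + Wnt3a (4.38) and CTNNB1 siRNA (4.28) followed with no overlap between neighbours.

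Of the tropomyosins, the rods that run along actin and set where other proteins bind, TPM1 read 4.16, 3.98 and 3.65 in untreated cells, 3.94, 4.02 and 3.83 with control siRNA, 4.12, 4.15 and 4.16 with CTNNB1 siRNA, and 4.53, 4.62 and 5.40 with FZ8CRD. With Wnt3a it read 4.17, 4.41 and 4.28 in untransfected cells, 4.39, 4.74 and 4.52 with control siRNA, 4.28, 4.18 and 4.12 with CTNNB1 siRNA, and 5.97, 5.87 and 5.58 with FZ8CRD. The FZ8CRD + Wnt3a arrays were above all others, and FZ8CRD replicate 3 was the nearest to them. The means, from the highest down, were FZ8CRD + Wnt3a (5.80), FZ8CRD (4.85), control siRNA + Wnt3a (4.55), Wnt3a (4.29), CTNNB1 siRNA + Wnt3a (4.19), CTNNB1 siRNA (4.14), untreated (3.93) and control siRNA (3.93), and every neighbouring pair after the first overlapped.

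TPM2 had another order. It read 4.21, 4.43 and 3.88 in untreated cells, 3.67, 3.78 and 3.41 with control siRNA, 3.45, 3.48 and 3.24 with CTNNB1 siRNA, and 2.87, 2.76 and 3.16 with FZ8CRD. Given Wnt3a, the values were 4.47, 4.58 and 3.93 in untransfected cells, 4.16, 3.94 and 3.72 with control siRNA, 3.58, 3.49 and 3.37 with CTNNB1 siRNA, and 3.42, 3.47 and 3.29 with FZ8CRD. Its high values were in cells given neither siRNA nor FZ8CRD, and its low values were with FZ8CRD alone. From Wnt3a (4.33) through untreated (4.17), control siRNA + Wnt3a (3.94), control siRNA (3.62), CTNNB1 siRNA + Wnt3a (3.48) and FZ8CRD + Wnt3a (3.39) to CTNNB1 siRNA (3.39), each condition overlapped the next, and FZ8CRD (2.93) lay below without overlap.

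The remaining members were not well above background. The probe for MYL9, the regulatory light chain of smooth muscle myosin, was well above background on 2 of 24 arrays. The probes for MYH11, its heavy chain, were so on 0 and 3 arrays, and those for LMOD1, a leiomodin that nucleates actin filaments, on 1 and 0. No probe of any member was saturated on any array. No difference is given for these 3 genes.

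Differences from untransfected cells that were treated alike are a description, since the members were chosen on the control siRNA and FZ8CRD values, and they share the untreated or the Wnt3a arrays with each other. Without Wnt3a, CNN1 was 5.37-fold higher with control siRNA (log2 difference 2.42, SD 0.05 and 0.29, n = 3 each, same-slide differences 2.15, 2.34 and 2.79). It was 16.6-fold higher with FZ8CRD (log2 4.06, same-slide differences 3.72, 4.03 and 4.42) and 3.91-fold higher with CTNNB1 siRNA (log2 1.97, same-slide differences 1.74, 2.21 and 1.96). CNN1 was the only 1 of the 7 members past a 2-fold difference with control siRNA, where 4.5% of all genes were. With Wnt3a the control siRNA difference of CNN1 was 1.70 (0.63 to 2.64 between slides, groups overlapping, and 2.53 without Wnt3a replicate 2), again the only 1 past 2-fold, where 2.27% of all genes were. The FZ8CRD difference with Wnt3a was 3.07, or 8.40-fold (1.64 to 3.96 between slides), and 3.89 without Wnt3a replicate 2.

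With FZ8CRD and no Wnt3a, CNN1 was past 2-fold upward and TPM2 downward, 2 of 7, where 9.56% of all genes were past 2-fold. TPM2 was 2.37-fold lower (log2 −1.24, same-slide differences −1.34, −1.67 and −0.71). TPM1 differed by 0.92 (0.37, 0.64 and 1.75) and TAGLN by 0.88 (0.32, 0.10 and 2.22), in both cases with the widest gap on the slide of FZ8CRD replicate 3. ACTG2 differed by −0.74 (−1.42, −1.11 and 0.31), the direction being set by replicates 1 and 2. Without FZ8CRD replicate 3 these differences were 4.03 for CNN1, −1.36 for TPM2, 0.65 for TPM1, 0.29 for TAGLN and −1.14 for ACTG2. CALD1 differed by 0.41 (0.31, 0.38 and 0.55) with all arrays, by 0.33 without FZ8CRD replicate 3, and by 0.03 when arrays were scaled to the spike-in probes. ACTA2 differed by 0.30 (0.20, 0.34 and 0.35), which turned to −0.08 when arrays were scaled to the spike-in probes.

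With both FZ8CRD and Wnt3a against Wnt3a alone, CNN1, TAGLN and TPM1 were past 2-fold upward, 3 of 7, where 7.68% of all genes were past 2-fold. TAGLN was 5.13-fold higher (log2 2.36, same-slide differences 2.95, 1.58 and 2.55) and TPM1 2.86-fold higher (log2 1.52, same-slide differences 1.80, 1.46 and 1.29). ACTG2 was 0.59 higher (0.68, 0.35 and 0.74) and CALD1 0.49 higher (0.64, 0.32 and 0.50), while TPM2 was −0.93 (−1.06, −1.11 and −0.64). Leaving out Wnt3a replicate 2 gave 2.75 for TAGLN, 1.58 for TPM1, 0.75 for ACTG2, 0.57 for CALD1 and −0.81 for TPM2.

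CTNNB1 siRNA against untransfected cells gave 2 of 7 past 2-fold without Wnt3a, CNN1 upward and ACTG2 downward, where 4.04% of all genes were. With Wnt3a it gave ACTG2 and TAGLN, both downward, where 3.97% of all genes were. TAGLN passed 2-fold there only with Wnt3a replicate 2, without which its difference was −0.67. CNN1 with Wnt3a was −0.69 (same-slide differences 0.77, −2.32 and −0.51), and it turned to 0.14 without Wnt3a replicate 2. ACTG2 was 8.43-fold lower without Wnt3a (log2 −3.08, −2.87 to −3.18 between slides) and 9.99-fold lower with it (log2 −3.32, −2.96 to −3.64 between slides). TAGLN differed by −0.96 and −1.06, CALD1 by −0.37 and −0.47, and TPM2 by −0.78 and −0.85, in the same order, each lower on 3 of 3 slides.

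**Figure D2:**
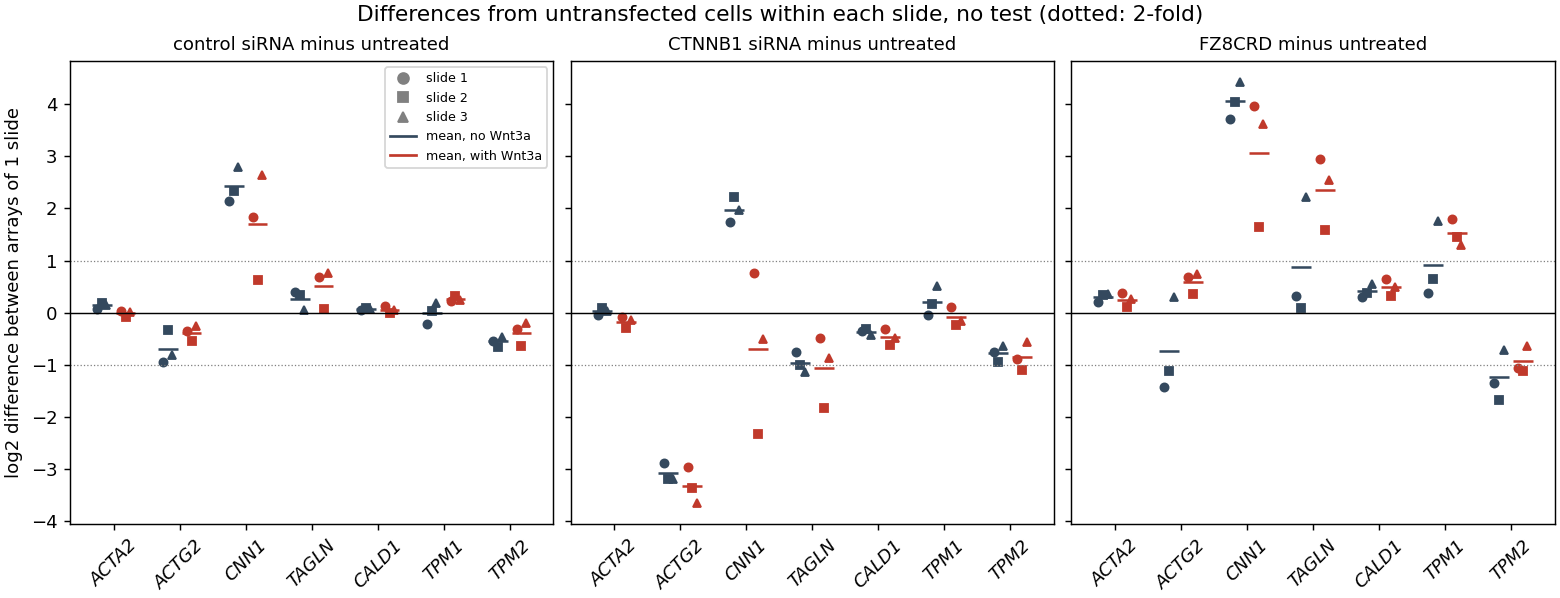
Log2 differences from untransfected cells between arrays of the same slide for each member, by symbol, with the mean as a line, without Wnt3a (dark) and with Wnt3a (red). CNN1 stands highest with FZ8CRD, at a mean of 4.06 without Wnt3a, and ACTG2 lowest with CTNNB1 siRNA, at −3.32 with Wnt3a. Scaled to the spike-in probes, the means near 0 of ACTA2 and CALD1 with control siRNA and of ACTA2 with CTNNB1 siRNA take the other sign in at least 1 state, and so does that of ACTA2 with FZ8CRD.

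The response to Wnt3a was tested in each background, to ask how β-catenin and the Wnt-binding domain bear on it. It was not behind the choice of members, although 3 of the 4 responses use arrays that were, and only the response with CTNNB1 siRNA used none of them. For the others, adjusted p are not independent of the choice, so the members that passed and their counts are a description, from which nothing is read against all genes. In untransfected cells CNN1 and ACTA2 passed upward, 2 of 7 members, where 2.99% of all genes rose and 2.61% fell. CNN1 was 4.18-fold higher (log2 2.06, standard error 0.49, limma adjusted p = 0.0203, same-slide differences 1.24, 3.63 and 1.32, higher in 3 of 3). ACTA2 was 1.24-fold higher (log2 0.31, standard error 0.06, adjusted p = 0.00828, higher in 3 of 3 slides), and it took the other sign, −0.07, when arrays were scaled to the spike-in probes, which moved the median of all genes from 0.01 to −0.36. The other tested members had log2 values from 0.16 for TPM2 to 0.49 for TAGLN and did not pass (0.03 and 0.10 without Wnt3a replicate 2), and the values of TPM1, TPM2 and CALD1 took the other sign under spike-in scaling. Both calls rested on Wnt3a replicate 2. Without it no member passed in limma (0.726% of all genes did), and the values were 1.24 for CNN1 (adjusted p = 0.137) and 0.26 for ACTA2 (adjusted p = 0.0703). CNN1 also missed the threshold without untreated replicate 1 (2.18, adjusted p = 0.0548) or without untreated replicate 2 (2.11, adjusted p = 0.064). CALD1 (0.21, adjusted p = 0.102) passed without FZ8CRD replicate 3 (0.21, adjusted p = 0.0464) or without Wnt3a replicate 1 (0.29, adjusted p = 0.0317).

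After control siRNA, 0 of 7 members passed in limma, where 2.11% of all genes did. Without adjustment 5 members had a limma p under 0.05, as did 3461 of all 24648 genes. TPM1 came nearest, with a log2 difference of 0.62 (standard error 0.17, adjusted p = 0.0603, higher in 3 of 3 slides). With the replicate number as a block, which pairs arrays of 1 slide, TPM1 passed (0.62, adjusted p = 0.0496). CNN1 differed by 1.34 (adjusted p = 0.182, higher in 3 of 3 slides), ACTG2 by 0.76 and TAGLN by 0.73. TPM1 passed without FZ8CRD replicate 3 (adjusted p = 0.00395), without Wnt3a replicate 2 (0.0459), without FZ8CRD replicate 1 (0.0422) or without untreated replicate 3 (0.0462), arrays that enter it only through the shared estimate of spread. CNN1 passed as well without Wnt3a replicate 2 (1.34, adjusted p = 0.0278).

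After CTNNB1 siRNA, 0 of 7 members passed in limma, where 0.0406% of all genes did. Without adjustment 0 members had a limma p under 0.05, and 2575 of all 24648 genes did. CNN1 differed by −0.59 (standard error 0.49, adjusted p = 0.783, higher in 1 of 3 slides), TAGLN by 0.38 (higher in 3 of 3 slides) and ACTG2 by 0.20 (higher in 1 of 3 slides, and −0.03 without replicate 2 of every condition). ACTA2 (0.11), CALD1 (0.10), TPM2 (0.09) and TPM1 (0.05) took the other sign under spike-in scaling. The CNN1 arrays with and without Wnt3a overlapped in this background.

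With FZ8CRD, a protein expected to hold Wnt3a away from its receptors, 5 of 7 members passed upward with Wnt3a: ACTA2, TAGLN, TPM1, CALD1 and ACTG2. The FZ8CRD arrays were behind the choice, so this count is a description. Of all genes 4.36% rose and 3.94% fell. TAGLN was 3.91-fold higher (log2 1.97, standard error 0.37, adjusted p = 0.00331), with same-slide differences of 2.83, 2.56 and 0.51. ACTG2 was 3.44-fold higher (log2 1.78, standard error 0.31, adjusted p = 0.00201), with same-slide differences of 2.20, 2.30 and 0.84. TPM1 was 1.93-fold higher (log2 0.95, standard error 0.17, adjusted p = 0.00233), with same-slide differences of 1.43, 1.24 and 0.17. CALD1 was 0.28 higher (adjusted p = 0.0229) and ACTA2 0.26 higher (adjusted p = 0.0121), both in 3 of 3 slides. Under spike-in scaling TPM1 (0.87, adjusted p = 0.153), CALD1 (0.20, adjusted p = 1) and ACTA2 (0.19, adjusted p = 1) did not pass, and with the deposited values ACTG2 did not (1.74, adjusted p = 0.0846). CNN1 differed by 1.08 (adjusted p = 0.216) and TPM2 by 0.46 (adjusted p = 0.0869), higher in 3 of 3 slides without passing. With the replicate block TPM2 passed (0.46, adjusted p = 0.0269).

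Without FZ8CRD replicate 3, which leaves 2 arrays in that condition, 6 of 7 members passed, where 19.9% of all genes did. These calls also use arrays behind the choice of members, so their adjusted p are not independent of it and they too are a description. FZ8CRD replicate 3 was moreover singled out for its nearness to the FZ8CRD + Wnt3a arrays, so its removal favours a larger difference. TAGLN was then 2.55 higher (standard error 0.29, adjusted p = 4.52e-06), ACTG2 2.18 (adjusted p = 1.76e-05), TPM1 1.22 (adjusted p = 1.8e-06), TPM2 0.58 (adjusted p = 0.0235), CALD1 0.37 (adjusted p = 0.000931) and ACTA2 0.24 (adjusted p = 0.014). CNN1 was 1.1 higher (adjusted p = 0.206). None of the 7 passed when replicate 1 or replicate 2 was left out of every condition (3 and 0 of all genes passed), or when only the FZ8CRD conditions were fitted (0 of all genes passed). When replicate 3 was left out of every condition, the 5 members that passed with all arrays did so again, and so did TPM2 (5328 of all genes passed). Other single arrays also moved these calls. CALD1 missed the threshold without any 1 of FZ8CRD replicate 1 (0.23, adjusted p = 0.184), FZ8CRD replicate 2 (0.25, 0.141) or FZ8CRD + Wnt3a replicates 1 (0.29, 0.0681), 2 (0.29, 0.0677) and 3 (0.27, 0.0715). ACTA2 missed it without FZ8CRD replicate 1 (0.26, adjusted p = 0.0747) or FZ8CRD + Wnt3a replicate 1 (0.25, 0.0584). Without Wnt3a replicate 2, which enters through the shared spread, CNN1 passed (1.08, adjusted p = 0.0455), and without Wnt3a replicate 3 TPM2 did (0.46, adjusted p = 0.0406).

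Whether the responses differed between backgrounds was tested as a difference of differences, which also uses arrays behind the choice. For FZ8CRD against none, 0 of 7 members passed in limma, where 0.073% of all genes did. Without adjustment 3 members had a limma p under 0.05, as did 3128 of all 24648 genes. The values were 1.48 for TAGLN (standard error 0.52, adjusted p = 0.223), 1.33 for ACTG2 (standard error 0.43, adjusted p = 0.186) and 0.60 for TPM1 (standard error 0.24, adjusted p = 0.286), where a positive value is a larger response with FZ8CRD. TAGLN and ACTG2 were positive on 3 of 3 slides and TPM1 on 2. Without FZ8CRD replicate 3, 3 members passed, where 7.75% of all genes did: TAGLN (2.07, standard error 0.40, adjusted p = 0.00275), TPM1 (0.87, standard error 0.17, adjusted p = 0.00398) and ACTG2 (1.73, standard error 0.38, adjusted p = 0.0075). These calls thus depend on 1 array, which was singled out for its nearness to the FZ8CRD + Wnt3a arrays. Leaving it out favours a larger response with FZ8CRD, so the calls are a description. Without Wnt3a replicate 2 the values were 1.87 for TAGLN (adjusted p = 0.187) and 1.49 for ACTG2 (adjusted p = 0.253). CNN1 had −0.99 (adjusted p = 0.636) with all arrays, −0.96 (adjusted p = 0.556) without FZ8CRD replicate 3 and −0.16 (adjusted p = 0.984) without Wnt3a replicate 2.

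**Figure D3:**
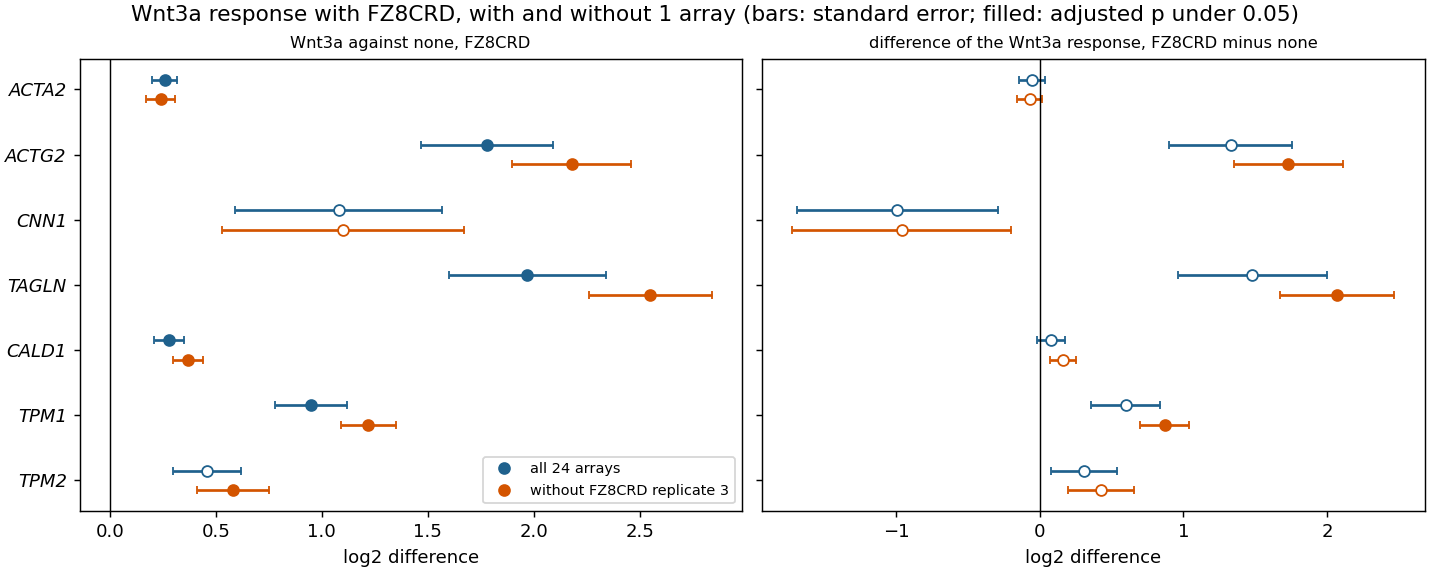
Log2 differences for the Wnt3a response with FZ8CRD (left) and for its difference from the response without FZ8CRD (right), with all 24 arrays (blue) and without FZ8CRD replicate 3 (orange), bars giving 1 standard error and filled points an adjusted p under 0.05. TAGLN moves from 1.97 to 2.55 on the left and from 1.48 to 2.07 on the right, where ACTA2, near 0, takes a positive value under spike-in scaling. The array left out was singled out for its nearness to the FZ8CRD + Wnt3a arrays, so its removal favours larger values.

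For the difference of the Wnt3a response between CTNNB1 siRNA and control siRNA, 0 of 7 members passed in limma, where 0.0162% of all genes did. Without adjustment 2 members had a limma p under 0.05, as did 822 of all 24648 genes. CNN1 had −1.93 (standard error 0.70, adjusted p = 1, lower on 3 of 3 slides) and TPM1 −0.57 (standard error 0.24, adjusted p = 1, lower on 3 of 3 slides). For control siRNA against none, 0 of 7 passed in limma, where 0% of all genes did, with values from −0.72 for CNN1 to 0.31 for ACTG2. Without adjustment 0 members had a limma p under 0.05, and 1183 of all 24648 genes did. Leaving out Wnt3a replicate 2 gave 0.10 for CNN1, 0.46 for ACTG2 and 0.64 for TAGLN, which had 0.25 with it.

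The direct comparison of CTNNB1 siRNA with control siRNA asks what the members do when β-catenin is lowered in cells handled alike. Both groups were electroporated, but with different siRNAs, and the study's supplement names 1 siRNA against CTNNB1. Effects of that siRNA on other genes therefore cannot be told apart from those of lower β-catenin. The control siRNA arrays were among those behind the choice, so the adjusted p are not independent of it and the counts of members are a description. Without Wnt3a, TAGLN, CALD1 and ACTG2 passed downward, 3 of 7 members, where 6.16% of all genes fell and 4.4% rose. ACTG2 was 5.21-fold lower (log2 −2.38, standard error 0.31, adjusted p = 4.57e-05, same-slide differences −1.92, −2.85 and −2.38). CALD1 was 1.36-fold lower (log2 −0.44, standard error 0.07, adjusted p = 0.000602, lower in 3 of 3 slides). TAGLN was 2.34-fold lower (log2 −1.23, standard error 0.37, adjusted p = 0.0381, lower in 3 of 3 slides), and this call was lost without any 1 of control siRNA replicates 1 (−1.17, adjusted p = 0.122) and 2 (−1.10, 0.133) or CTNNB1 siRNA replicates 1 (−1.32, 0.0669), 2 (−1.30, 0.0704) and 3 (−1.06, 0.164). Under spike-in scaling neither TAGLN (−1.16, adjusted p = 0.197) nor CALD1 (−0.37, adjusted p = 1) passed. CNN1 differed by −0.46 (adjusted p = 0.7), TPM2 by −0.24, ACTA2 by −0.11 and TPM1 by 0.21.

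With Wnt3a, CNN1, TAGLN, CALD1 and ACTG2 passed downward, 4 of 7 members, where 6.5% of all genes fell and 4.08% rose. ACTG2 was 7.64-fold lower (log2 −2.93, standard error 0.31, adjusted p = 2.8e-06, same-slide differences −2.61, −2.81 and −3.38). CNN1 was 5.24-fold lower (log2 −2.39, standard error 0.49, adjusted p = 0.00277, same-slide differences −1.07, −2.95 and −3.15). TAGLN was 2.98-fold lower (log2 −1.57, standard error 0.37, adjusted p = 0.00754) and CALD1 1.44-fold lower (log2 −0.53, standard error 0.07, adjusted p = 7.02e-05), both on 3 of 3 slides. TAGLN missed the threshold without replicate 1 (−1.77, adjusted p = 0.0957) or replicate 2 (−1.41, adjusted p = 0.145) of every condition, and CALD1 under spike-in scaling (−0.75, adjusted p = 0.109). TPM2 differed by −0.46 (adjusted p = 0.0769), TPM1 by −0.36 (adjusted p = 0.219) and ACTA2 by −0.16 (adjusted p = 0.122), each lower on 3 of 3 slides. With the replicate block TPM2 passed (−0.46, adjusted p = 0.0218), and without FZ8CRD replicate 3 TPM1 did (−0.36, adjusted p = 0.0493), as did TPM2 without Wnt3a replicate 3 (−0.46, adjusted p = 0.0334). The block changed no call of a member beyond those given for TPM1 and TPM2.

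**Figure D4:**
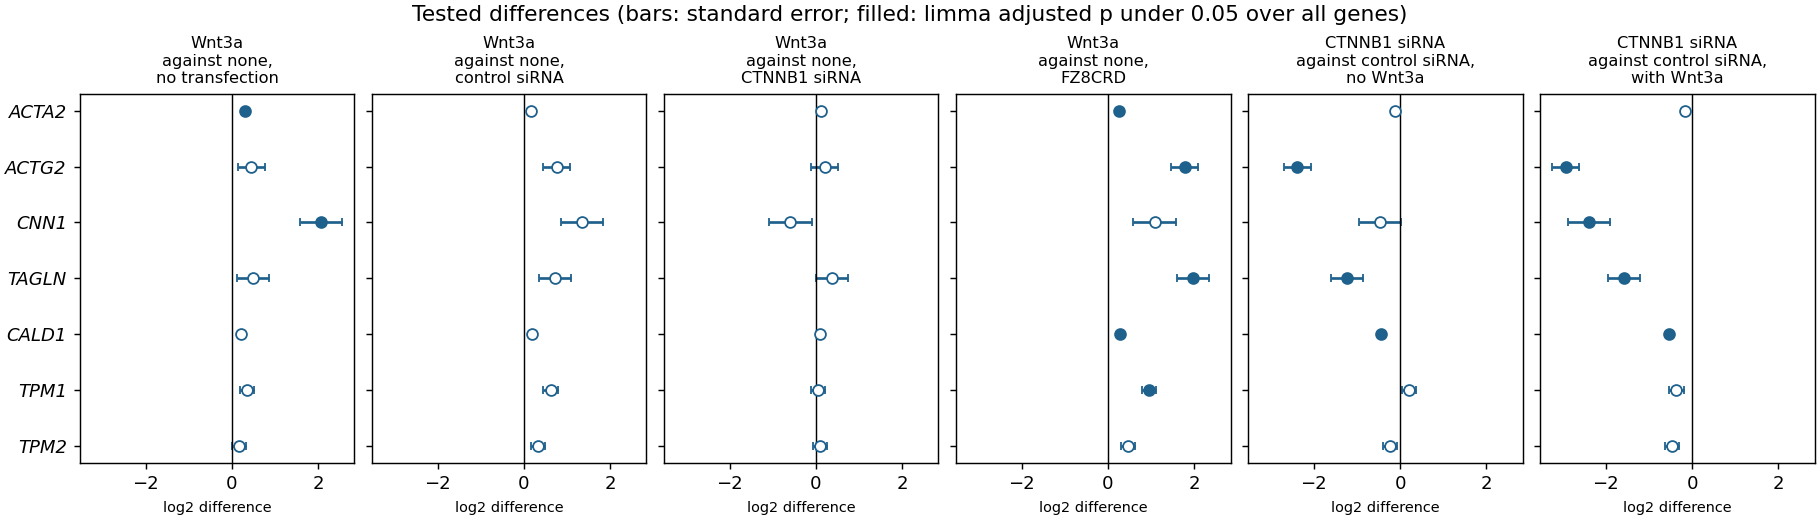
Tested log2 differences of the 7 members in 6 comparisons, bars giving 1 standard error and filled points a limma adjusted p under 0.05 over all genes. ACTG2 lies at −2.93 and CNN1 at −2.39 for CTNNB1 siRNA against control siRNA with Wnt3a, and TAGLN at 1.97 for Wnt3a with FZ8CRD; scaled to the spike-in probes, ACTA2, CALD1, TPM1 and TPM2 take the other sign for Wnt3a without transfection and with CTNNB1 siRNA.

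Several members had more than 1 probe. Probes of a gene were read on the same arrays and are not replicates. Those of TAGLN and of TPM2 are named for the same transcript, while those of TPM1 are named for different transcripts. The other TAGLN probe gave 2.08 for Wnt3a with FZ8CRD and −1.83 for CTNNB1 siRNA against control siRNA with Wnt3a. For FZ8CRD against untreated without Wnt3a it gave 1.13, past 2-fold where the probe used for the gene (0.88) was not. For CTNNB1 siRNA against untransfected cells with Wnt3a it gave −0.95, short of 2-fold where the probe used (−1.06) was past it. All 3 TPM1 probes gave 0.95 to 0.98 for Wnt3a with FZ8CRD, and both TPM2 probes gave 0.46. For FZ8CRD against untreated the TPM2 probes gave −1.24 and −1.21, and the TPM1 probes 0.92, 0.95 and 0.85, so each probe of TPM1 was higher and each of TPM2 lower. For CTNNB1 siRNA against control siRNA with Wnt3a the TPM1 probes gave −0.36, −0.12 and −0.07.

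Across the 24 arrays, which share the 8 conditions and the slides, the members other than TPM2 varied together to different degrees. Pearson's r was 0.93 for CALD1 with TAGLN, 0.87 for TAGLN with TPM1, 0.83 for ACTG2 with CALD1 and 0.41 for ACTG2 with CNN1, the lowest among these 6. TPM2 had r from −0.38 with CNN1 to 0.42 with ACTG2. The genes outside the members with the highest r to the mean of their standardised values over the 24 arrays were GBP1 (0.984), ODAPH (0.982), PRKCH (0.978), LMCD1 (0.97), PLEKHO1 (0.97), PCED1B (0.962), MEAK7 (0.959) and IGFL1 (0.948). These genes were picked for their likeness on the same arrays, so their differences are a description. IGFL1 was 5.11 higher in log2 with Wnt3a in the presence of FZ8CRD (same-slide differences 6.14, 6.67 and 2.53) and ODAPH 2.49 higher (3.20, 3.29 and 0.98), each with its smallest difference on the slide of FZ8CRD replicate 3.

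The lists that follow were drawn up with earlier results of these data known. Some listed genes, such as MRTFA, FHL2, MYH9 and TPM4, are among those the study reported as changed by Wnt3a on the same arrays. Counts for the lists are therefore a description, from which no enrichment is read. They stand beside these shares of all genes that passed. With Wnt3a 2.99% rose and 2.61% fell in untransfected cells, and 4.36% and 3.94% with FZ8CRD. After control siRNA 2.11% passed, and after CTNNB1 siRNA 0.0406%. For CTNNB1 siRNA against control siRNA 4.4% rose and 6.16% fell without Wnt3a, and 4.08% and 6.5% with it. Counts of listed genes without an array go with a change over all genes, from 1381 passing to 179 for Wnt3a in untransfected cells without Wnt3a replicate 2, and from 2044 to 4916 with FZ8CRD without FZ8CRD replicate 3. Regulators that drive or restrain smooth muscle genes were 15 tested of 16. In untransfected cells 2 rose and 1 fell with Wnt3a, with a list median of −0.08 beside 0.014 for all genes. MRTFA rose by 0.68 (adjusted p = 0.00974) and FHL2, an adaptor that binds SRF and β-catenin, by 0.58 (adjusted p = 0.0108), each in 3 of 3 slides, and CSRP2 fell by 0.44 (adjusted p = 0.0319, 3 of 3 slides). SRF differed by 0.30 (adjusted p = 0.485) and did not pass in any of the 9 comparisons. With FZ8CRD, 4 rose and 1 fell with Wnt3a (median 0.14), among them JAG1 at 0.75, MRTFA at 0.52 and FHL2 at 0.44, and PRKG1 fell by 0.81. After CTNNB1 siRNA against control siRNA, 3 rose and 3 fell without Wnt3a (median 0.19) and 2 rose and 2 fell with it (median 0.11). NOTCH3 fell by 1.30 and by 1.27, and MRTFB rose by 0.29 with Wnt3a (adjusted p = 0.0211). Without Wnt3a replicate 2 no regulator passed in untransfected cells, and without FZ8CRD replicate 3 the FZ8CRD counts were 6 up and 4 down.

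Partners in the thick and thin filaments, 25 tested of 27, gave 5 up and 0 down with Wnt3a in untransfected cells (median 0.15 beside 0.014 for all genes). These were TPM4 (0.96), the nonmuscle myosin heavy chain MYH9 (0.67), SMTN (0.60), SVIL (0.50) and the light chain kinase MYLK (0.28), each higher in 3 of 3 slides. SVIL was the only one to pass after control siRNA (0.61, adjusted p = 0.0043). With FZ8CRD 3 rose and 0 fell (median 0.14), namely MYH9 (0.47), MYL6 (0.37) and TAGLN2 (0.33). CTNNB1 siRNA against control siRNA gave 3 up and 1 down without Wnt3a (median −0.06) and 1 up and 6 down with it (median −0.03), the latter with TPM4 at −0.79, CNN2 at −0.73 and MYH9 at −0.52. Without Wnt3a replicate 2 the count in untransfected cells was 1 up, and without FZ8CRD replicate 3 the FZ8CRD counts were 5 up and 2 down.

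Of 5 other actins, 4 were tested. ACTG1, a cytoplasmic actin, rose with Wnt3a in untransfected cells (0.46, adjusted p = 0.015) and with FZ8CRD (0.36, adjusted p = 0.0367), and ACTA1 rose with FZ8CRD (0.69, adjusted p = 0.0217), so the counts were 1 and 2 up (medians 0.36 and 0.44). ACTG1 and ACTB fell with CTNNB1 siRNA against control siRNA without Wnt3a (−0.42 and −0.29), and ACTG1 with Wnt3a (−0.63), with medians of −0.28 and −0.24. Without Wnt3a replicate 2, 0 of these actins passed in untransfected cells, and without FZ8CRD replicate 3, 3 rose with FZ8CRD.

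Dense plaque and stress fibre proteins, which anchor actin to the membrane, were 31 tested of 32. ACTN1, FLNA, PDLIM3, PDLIM7, ITGA5, CFL1 and ITGA8 are among the genes the study reported as changed by Wnt3a on these arrays. The list's Wnt3a counts are thus a description. With Wnt3a in untransfected cells 12 rose and 1 fell (median 0.33 beside 0.014 for all genes), where 2.99% of all genes rose and 2.61% fell. Those that rose were led by PDLIM3 (1.00, adjusted p = 0.00897), FLNA (0.95, adjusted p = 0.0102), PDLIM7 (0.81) and ACTN1 (0.75), and ITGA8 fell by 1.44. With FZ8CRD 9 rose and 1 fell (median 0.27), led by ITGA5 (0.98), PDLIM7 (0.92), FLNA (0.91) and PDLIM3 (0.83). CTNNB1 siRNA against control siRNA gave 2 up and 7 down both without and with Wnt3a (medians −0.16 and −0.14), with PDLIM3 at −1.02 and −1.05 and the membrane protein CAV1 at 0.77 in both. Without Wnt3a replicate 2 the counts in untransfected cells were 4 up and 1 down, and without FZ8CRD replicate 3 the FZ8CRD counts were 14 up and 1 down. After control siRNA only ITGA8 passed, falling by 1.15.

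Smooth muscle channels and receptors, 7 tested of 9, gave 0 calls in untransfected cells, 1 with FZ8CRD (ADRA1B at −1.01, list median 0.02) and 1 with CTNNB1 siRNA in each state (PTGFR at −0.89 and −0.64, medians −0.14 and −0.02). Without FZ8CRD replicate 3 the FZ8CRD counts were 1 up and 2 down.

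COL1A1, COL1A2, COL3A1, DCN, LUM and FAP of the fibroblast or stellate list are among the genes the study reported as changed by Wnt3a on these arrays. The list's Wnt3a counts are thus a description. Fibroblast or stellate markers, 12 tested of 13, gave 6 up and 0 down with Wnt3a in untransfected cells (median 0.82), where 2.99% of all genes rose and 2.61% fell. They gave 4 up after control siRNA (0.58), where 2.11% of all genes passed, and 0 after CTNNB1 siRNA (0.17), where 0.0406% did. With FZ8CRD 4 were up (0.02), where 4.36% of all genes rose and 3.94% fell. COL1A1 was 1.86 higher in untransfected cells (adjusted p = 0.00411) and 2.65 higher with FZ8CRD (adjusted p = 0.000217). LUM rose by 1.04 without FZ8CRD and differed by −0.39 with it (adjusted p = 0.256), and the difference between these responses passed (−1.42, adjusted p = 0.0466, lower on 3 of 3 slides). CTNNB1 siRNA against control siRNA gave 0 up and 4 down without Wnt3a (median −0.32) and 0 up and 7 down with it (median −1.21), led by DCN (−1.80), COL1A2 (−1.75) and LUM (−1.61). Without Wnt3a replicate 2 the count in untransfected cells was 4 up, and the call for LUM between responses was lost. Without FZ8CRD replicate 3 the FZ8CRD counts were 4 up and 2 down.

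**Figure D5:**
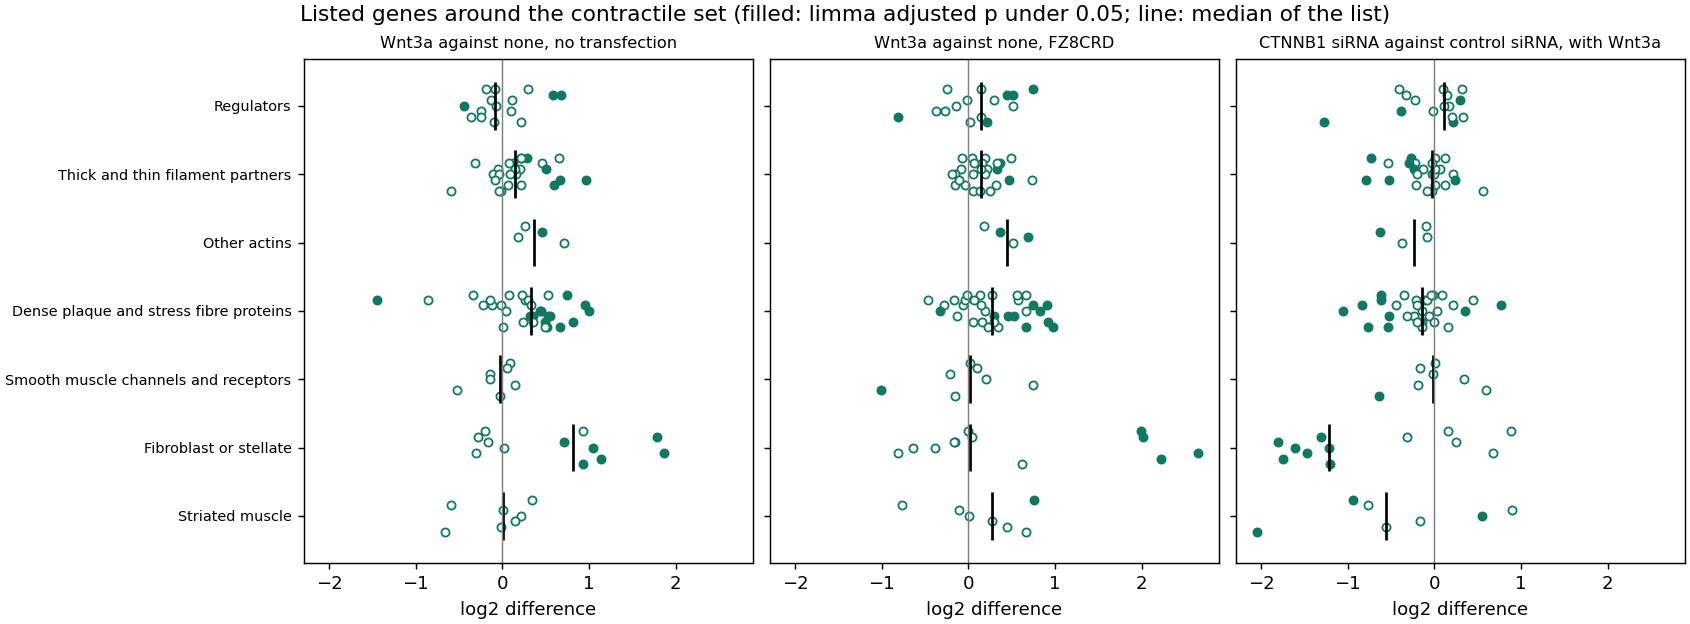
Log2 differences of the tested genes of 7 lists, 1 point per gene, in 3 comparisons, filled where the limma adjusted p was under 0.05, with a line at the list's median. The dense plaque and stress fibre list has 12 genes up and 1 down for Wnt3a without transfection, where 2.99% of all genes rose and 2.61% fell. The fibroblast list has 7 down for CTNNB1 siRNA against control siRNA with Wnt3a, where 6.5% of all genes fell. All lists were drawn up with earlier results of these data known, so their counts are a description.

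Hepatocyte markers, all 11 tested, gave 0 calls for Wnt3a in untransfected cells (median −0.87) and 2 up with FZ8CRD (TTR at 2.62 and APOA1 at 2.22, median 0.41). As a description, 9 of the 11 were past 2-fold lower with control siRNA, both without and with Wnt3a (4.5% and 2.27% of all genes past 2-fold either way). With FZ8CRD 11 were lower without Wnt3a, and 7 lower and 1 higher with it (9.56% and 7.68% of all genes), beside the CNN1 differences of 4.06 and 3.07. With CTNNB1 siRNA 8 were lower without Wnt3a and 5 with it (4.04% and 3.97% of all genes). Striated muscle markers, 7 tested of 15, gave 0 calls in untransfected cells, 1 up with FZ8CRD (TNNT1 at 0.76) and 1 up and 2 down with CTNNB1 siRNA in each state, with MB at −2.05 with Wnt3a. Their summed level was 9.66 in untreated cells, 14.6 with control siRNA, 8.21 with CTNNB1 siRNA and 13.3 with FZ8CRD, and 12.2, 18.0, 10.3 and 21.4 in the same order with Wnt3a. Their part in the values of the contractile genes was not tested.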

How the data were processed

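Scanner files of 24 arrays were read. Per the file headers, intensity values are the processed signals of Agilent Feature Extraction 10.7.1.1 (10.7.3.1 in the submitters' notes), with the local background already subtracted. The log2 values deposited in the series value table (25443 entries, 20052 genes, 7 members) had been centred on each probe's median by the authors, and differences between arrays there had a median r of 0.986 with those used here. Here, signals were divided by the array's 75th percentile, raised to a floor of 1.43% of it (−6.13 in log2) and put on a log2 scale, spots marked as outliers were left out, and the spots of a probe were averaged. Of 50683 probes, 28174 carried a RefSeq symbol (20503 symbols). A probe stayed in (31067 did) if some condition had it well above background in all 3 cultures, and a gene with several such probes was represented by the one of highest mean log2 signal, which left 24648 genes, 16001 with a symbol. The 10 members had 16 probes, of which 11 were kept. There were 41 missing values, 0 of them in members.

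Differences were fitted in limma, with all 8 conditions in 1 model, moderated variances with a trend, and p adjusted by Benjamini and Hochberg over all genes of each comparison, with 0.05 as the threshold. Differences from untransfected cells, behind the choice of members, were given with no test.

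Members and gene lists were chosen with earlier results of these data known. Genes named are the 10 members, CTNNB1, listed genes that passed in a comparison or were past 2-fold in a described one (at most 5 for each list and comparison, by size), the regulators SRF, MYOCD, MRTFA (MKL1) and MRTFB (MKL2), and the 8 genes with the highest r to the members' mean. THY1 and single genes beyond this rule were named after their values were seen.

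Arrays with the same replicate number share a slide per the file headers. Of 84 pairs with the same number, 82 had an r over 0.1 for their differences (lowest −0.06, mean 0.38), against a mean of −0.19 for other pairs, so same-slide differences and a block are given. Alternatives tried were other scalings, backgrounds, floors, filters, probe summaries, models and thresholds, and leaving out each array or replicate number. List counts without FZ8CRD replicate 3 or Wnt3a replicate 2 were added after the data were seen. Tools were R 4.3.3, limma 3.58.1, python 3.11.15, pandas 2.3.3 and matplotlib 3.10.9.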

Additional observations from a re-analysis of the deposited data

How the results depend on the processing

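Of 2583 tested values of members under the alternatives, 2490 stayed on their side of the threshold, 57 fell short of it, 35 newly passed it and 1 that had passed took the other sign. Some small values that did not pass also took the other sign, among them TPM1, TPM2 and CALD1 for Wnt3a in untransfected cells with spike-in scaling. Of 1596 described values, 1565 moved by less than the spread between replicates and 31 by more. The reversed value was ACTA2 for Wnt3a in untransfected cells, −0.07 (adjusted p = 0.848) when scaled to the 7 spike-in probes; the cause was not tested.

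For Wnt3a in untransfected cells, where 2 members passed, 0 did with spike-in scaling, 1 with no filter on dim probes, 3 with quantile normalization or the deposited values (CALD1 added), 0 with only the conditions compared and 1 with the study's thresholds, and 0 to 3 with arrays left out. After control siRNA, where 0 passed, 1 did with quantile normalization, 1 with normexp on the median signal, 1 with the replicate block, 2 with only the conditions compared and 1 with the study's thresholds, and 0 to 2 with arrays left out. With FZ8CRD, where 5 passed, 2 did with spike-in scaling (ACTA2, TPM1 and CALD1 lost), 0 with only the conditions compared and 3 with the study's thresholds, and 0 to 6 with arrays left out. For CTNNB1 siRNA against control siRNA without Wnt3a, where 3 passed, 1 did with spike-in scaling, 2 with normexp, with no filter on dim probes or with no moderation (TAGLN lost), 2 with the study's thresholds (CALD1 lost) and 4 with only the conditions compared (TPM1 added). With Wnt3a, where 4 passed, 3 did with spike-in scaling (CALD1 lost), 3 without replicate 1 or 2 (TAGLN lost), 5 with normexp (ACTA2 added) and 5 with the replicate block (TPM2 added). For the response with FZ8CRD minus that without, where 0 passed, 1 did with the study's thresholds and 0 to 4 with arrays left out. The number of all genes that passed moved as well. For Wnt3a in untransfected cells it was 1381, and 237 with spike-in scaling, 848 with no filter, 1611 with quantile normalization, 1489 with the deposited values and 2 with only the conditions compared. It was 2823 with the replicate block, and 27, 6 and 6344 without replicate 1, 2 or 3 of every condition. After control siRNA it was 520, and 504 with quantile normalization, 471 with normexp, 1073 with the replicate block and 1329 with only the conditions compared. With FZ8CRD it was 2044, and 235 with spike-in scaling, 0 with only the conditions compared and 3298 with the replicate block. It was 3, 0 and 5328 without replicate 1, 2 or 3 of every condition. For CTNNB1 siRNA against control siRNA it was 2604 without Wnt3a and 2608 with it, 183 and 677 with spike-in scaling, and 4095 and 3846 with the replicate block. Fits of only the conditions compared hold fewer arrays. The other causes were not tested.

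For CTNNB1 siRNA against control siRNA, whose control siRNA arrays were behind the choice of members, ACTG2 ranged over the alternatives from −2.66 to −1.72 without Wnt3a and from −3.15 to −2.33 with it, and CNN1 with Wnt3a from −3.05 to −1.95, as a description. The deposited values left ACTG2 short of the threshold for Wnt3a with FZ8CRD. Signal over background limits MYL9, MYH11 and LMOD1, for which no difference can be read, and 3 cultures of 1 line in each condition limit the rest.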
